A study of Homo sapiens with 2 samples.

Results

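The let-7 family of microRNAs (miRNAs) was followed in Huh7 cells, an established human hepatocellular carcinoma line, after treatment with Y27632 and in control cells. The 9 members were chosen by their accessions in the deposited table, of 1001 probes in all, and are the 5p arms of let-7a, let-7b, let-7c, let-7d, let-7e, let-7f, let-7g and let-7i together with miR-98. In the table they are the rows MIMAT0000062 (let-7a), MIMAT0000063 (let-7b), MIMAT0000064 (let-7c), MIMAT0000065 (let-7d), MIMAT0000066 (let-7e), MIMAT0000067 (let-7f), MIMAT0000414 (let-7g), MIMAT0000415 (let-7i) and MIMAT0000096 (miR-98). Names were taken from the rule that lists these accessions, since the table itself holds none. The study used 2 single-colour arrays labelled with the dye Hy5. One array held RNA of Huh7 cells harvested 12 hours after addition of 10 µM Y27632, and the other held RNA of control Huh7 cells. Both cultures were of the same line and were kept in the same serum-supplemented medium. The description of the treatment is attached to both samples, so the control was assigned by its title and the series design alone. That title names no vehicle and no harvest time, so a difference in either cannot be told apart from the treatment. With 1 array per condition no value has a replicate error, no test was possible, and each difference describes these 2 arrays. The labelled cell type could not be checked against its marker miRNAs, because no table used here pairs their names with the accessions.

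MiRNAs are short RNAs that guide Argonaute proteins to messenger RNAs, mainly through the seed near their 5′ end. Let-7 was first described in Caenorhabditis elegans, where it controls developmental timing, and in mammals it represses growth-related messages such as those of RAS genes, HMGA2 and MYC. The proteins LIN28A and LIN28B bind let-7 precursors and block their maturation, and low let-7 is a known feature of many tumours, liver tumours among them. Y27632 is a cell-permeable compound that inhibits protein kinases.

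All 9 mature sequences were found in RefSeq (GRCh38.p14). They are shown because the likeness of these sequences decides how far a probe for one member may also bind another. Bases 2 to 8, the seed, are in capitals.
let-7a-5p: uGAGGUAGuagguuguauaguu
let-7b-5p: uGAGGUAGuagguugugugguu
let-7c-5p: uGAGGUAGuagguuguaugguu
let-7d-5p: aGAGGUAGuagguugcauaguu
let-7e-5p: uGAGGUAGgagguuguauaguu
let-7f-5p: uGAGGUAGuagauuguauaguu
let-7g-5p: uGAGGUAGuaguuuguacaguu
let-7i-5p: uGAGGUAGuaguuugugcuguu
miR-98-5p: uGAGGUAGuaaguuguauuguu

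The seed GAGGUAG was the same in all 9. Of the mature miRNAs that RefSeq lists, 11 of 2370 mature names (0.464%) carried these letters at bases 2 to 8, the other two being miR-4458 and miR-4500. One further name, miR-202-3p, shared bases 2 to 7 only. No intensity is given for these relatives, which could not be matched to accessions.

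The members differed at few positions outside the seed. All are 22 bases long, 14 positions were identical in all 9, and the 8 that varied were 1, 9, 11, 12, 16, 17, 18 and 19. Counted from 1 at the 5′ end, with the let-7a base first, let-7c differed from let-7a by A19G, let-7e by U9G and let-7f by G12A. Let-7b differed by A17G and A19G, let-7d by U1A and U16C, let-7g by G12U and U18C, and miR-98 by G11A and A19U. Let-7i was the most distant from let-7a, with G12U, A17G, U18C and A19U. Of the 36 pairs, 4 differed by 1 base (let-7a with let-7c, let-7e and let-7f, and let-7b with let-7c), 10 differed by 2 bases and 11 by 3. The largest distance, 6 bases, was between let-7d and let-7i.

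**Figure D1:**
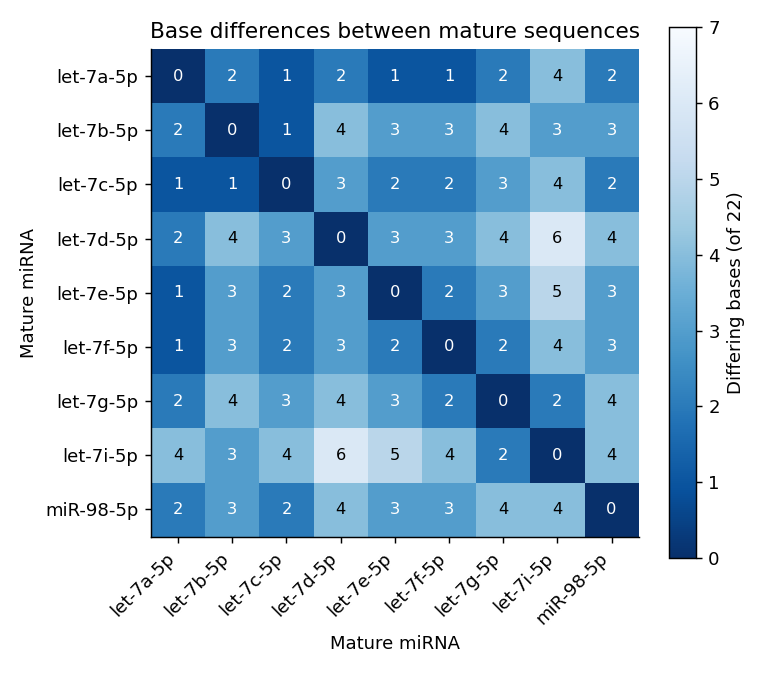
Number of differing bases, of 22, between the mature sequences of each pair of members (rows and columns, darker for fewer differences). Let-7a lies 1 base from let-7c, let-7e and let-7f, and let-7i lies 4 bases from let-7a and 6 from let-7d.

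The array probe sequences were not used here. A probe for let-7a could bind let-7c, let-7e or let-7f through a single mismatch, and the same holds in the other direction, so the values of these members may share signal. How much of any value came from such cross-hybridization was not tested.

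The 9 members come from 12 loci in the RefSeq table. Let-7a has 3 hairpins, MIRLET7A1 (mature bases at chr9:94175962-94175983, plus strand, within the span of the lncRNA gene MIRLET7A1HG), MIRLET7A2 (chr11:122146568-122146589, minus strand, within the span of MIR100HG) and MIRLET7A3 (chr22:46112752-46112773, plus strand, within the span of MIRLET7BHG). Their hairpins are shown with the shared mature let-7a in capitals, since a probe for the mature form reads all 3 together.
MIRLET7A1: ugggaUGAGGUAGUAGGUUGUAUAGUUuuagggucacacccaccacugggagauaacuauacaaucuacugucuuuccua
MIRLET7A2: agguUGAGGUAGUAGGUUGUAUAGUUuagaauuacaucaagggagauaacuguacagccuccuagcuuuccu
MIRLET7A3: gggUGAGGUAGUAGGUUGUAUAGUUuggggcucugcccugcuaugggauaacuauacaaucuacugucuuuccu

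Let-7f likewise has 2 loci, MIRLET7F1 (chr9:94176353-94176374, plus strand) and MIRLET7F2 (chrX:53557246-53557267, minus strand, within the span of HUWE1). The mature forms of MIRLET7A1 and MIRLET7F1 start 391 bases apart on chromosome 9, and let-7d follows 2488 bases after let-7f at chr9:94178841-94178862, on the same strand. Let-7b (chr22:46113691-46113712, plus strand) starts 939 bases after the let-7a of MIRLET7A3. MiR-98 (chrX:53556299-53556320, minus strand) starts 947 bases from MIRLET7F2 and also lies within the span of HUWE1. Let-7c (chr21:16539838-16539859, plus strand) lies within the span of MIR99AHG, and let-7e (chr19:51692793-51692814, plus strand) within that of SPACA6. Let-7g (chr3:52268336-52268357, minus strand) lies within the span of WDR82, and let-7i (chr12:62603691-62603712, plus strand) within that of MIRLET7IHG. Some loci lie within further spans. The protein-coding gene LOC124905135 also spans MIRLET7A3, and together with MIRLET7BHG it spans let-7b. MIRLET7A1HG also spans MIRLET7F1, and together with LINC02603 it spans let-7d. SPACA6-AS1 also spans let-7e. The gene table gives spans only, so intron and exon were not assigned.

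Of the 9 probes, 6 were listed on both arrays, at moderate brightness (10.3 to 31.5 after Y27632 and 11.4 to 40.2 in the control). The values are deposited array intensities, read as linear from their range. The arrays listed 614 probes (Y27632) and 619 probes (control), with median intensities of 6.1 and 6.0 and maxima of 43198.2 and 45829.6. Probes listed on both arrays numbered 519 (51.8% of 1001), against 6 of 9 members (66.7%). A cell with no value is called not listed, because what it stands for is not given in the sources used here.

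Let-7a was the brightest member, at 31.5 on the Y27632 array and 40.2 on the control array. Let-7e, which differs from it by 1 base just after the seed, read 26.2 after Y27632 and 34.1 in the control. These were the only members among the brightest 25% of probes listed on both arrays, and both were dimmer on the Y27632 array.

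Let-7c read 17.5 after Y27632 and 18.1 in the control. Let-7d read 14.1 after Y27632 and 15.4 in the control. Let-7f, like let-7c and let-7e a 1-base relative of let-7a, read 13.8 after Y27632 and 14.0 in the control. For let-7c and let-7f the arrays differed by less than 1 intensity unit (-0.6 and -0.2, Y27632 minus control). Let-7b, the member with the most G and C bases (10 of 22), was the dimmest of the 6, at 10.3 after Y27632 and 11.4 in the control.

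**Figure D2:**
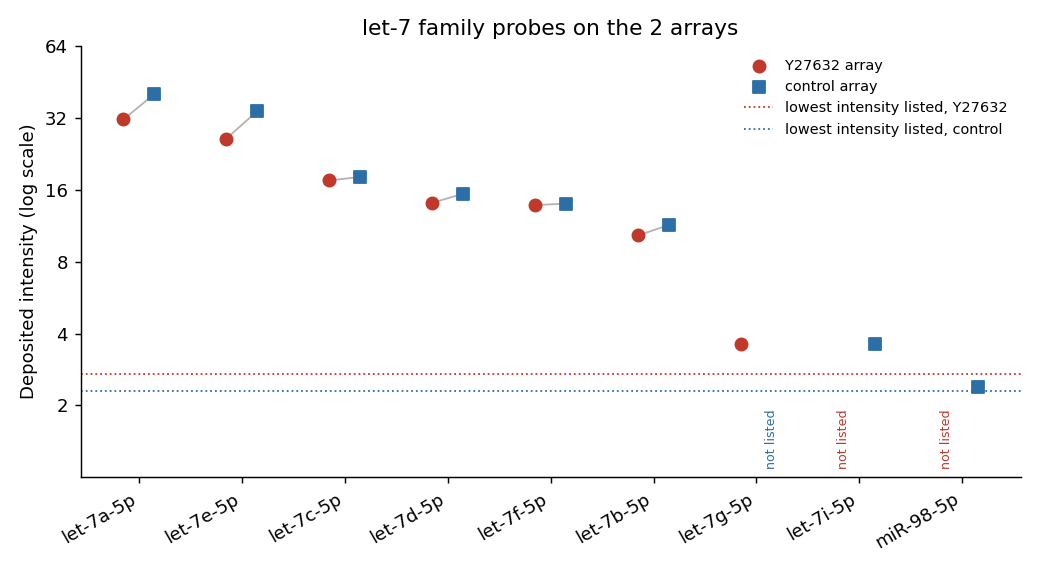
Deposited intensity (log scale) of each member on the Y27632 array (circles, left) and the control array (squares, right). Lines join the values of 1 probe and dotted lines mark the lowest intensity listed on each array. The order of the 6 probes listed on both arrays is the same on each, with let-7a at 31.5 and 40.2 and let-7b at 10.3 and 11.4 (Y27632, then control), and let-7g, let-7i and miR-98 have a value on 1 array only.

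The order of the 6 was the same on both arrays, let-7a, let-7e, let-7c, let-7d, let-7f and let-7b from bright to dim. Brightness also depends on each probe's binding, so this order does not rank the miRNAs by abundance. The step from let-7e to let-7c was the widest of the 5 on both arrays, at 0.58 on the log2 scale after Y27632 and 0.91 in the control. The step from let-7d to let-7f was the narrowest, at 0.03 after Y27632 and 0.14 in the control. The remaining steps (let-7a to let-7e, let-7c to let-7d, let-7f to let-7b) lay between 0.27 and 0.42 after Y27632 and between 0.23 and 0.30 in the control. With 1 array per condition a level has no measured spread, so whether neighbours in this order differ beyond it was not tested.

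Y27632-treated cells were set against control cells to see whether let-7 levels differ after this treatment. All 6 let-7 probes listed on both arrays read lower on the Y27632 array as deposited, but after quantile normalization let-7f was higher and let-7d level, and after a lowess correction let-7c and let-7f were higher. None of the 6 reached 1.5-fold in either direction, whereas 8.86% of the 519 probes read at least 1.5-fold above the control and 5.39% at least 1.5-fold below it. Among the 260 probes of the brighter 50%, to which all 6 belonged, these shares were 1.15% above and 2.31% below. None of the 6 was 2-fold different either, a limit reached by 2.5% of the 519 probes upward and 0.578% downward.

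The 2 brightest members had the lowest ratios. For let-7e the log2 ratio of Y27632 over control was -0.38 (0.768-fold) and for let-7a it was -0.35 (0.784-fold). The other 4 lay closer to 0, at -0.15 for let-7b (0.904-fold), -0.13 for let-7d (0.916-fold), -0.05 for let-7c (0.967-fold) and -0.02 for let-7f (0.986-fold). The median log2 ratio of the 6 was -0.14, against 0.00 over all 519 probes and -0.03 in the brighter 50%. Of the 103 probes whose mean brightness lay between that of let-7b and let-7a (geometric mean 10.8 to 35.6, members included), 58 (56.3%) also read lower after Y27632, and their median log2 ratio was -0.04 (quartiles -0.28 and 0.12). The share reading lower was 48.9% of the 519 probes and 55.8% of the brighter 50%. Let-7a and let-7e lay below the lower quartile of these 103 probes, and the other 4 members lay between the quartiles.

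**Figure D3:**
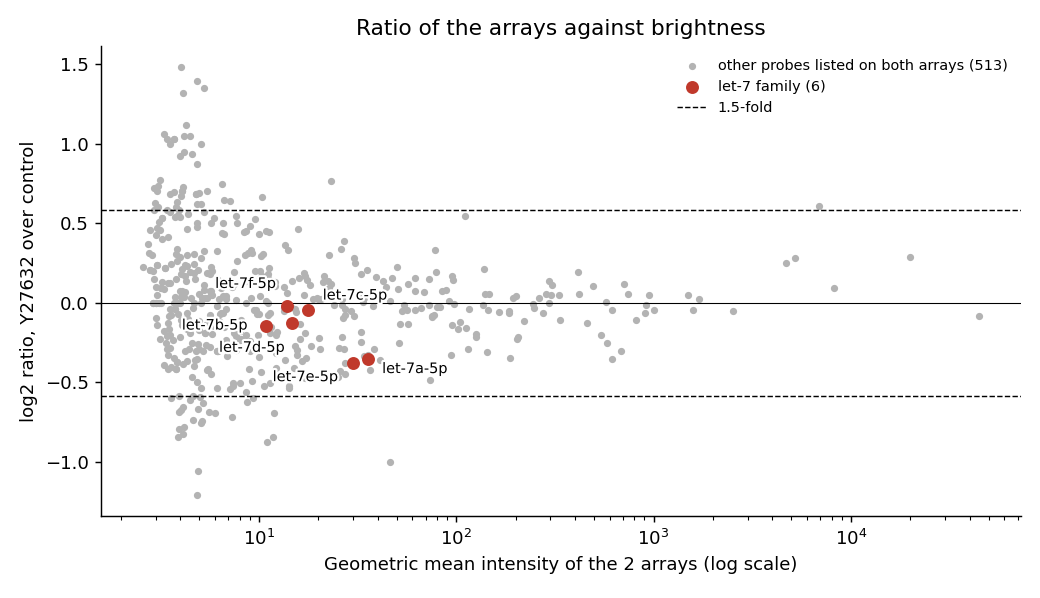
Log2 ratio of Y27632 over control against the geometric mean intensity of the 2 arrays (log scale), with the 6 let-7 members listed on both arrays in red and all other such probes in grey. Dashed lines mark 1.5-fold. All 6 members lie between the dashed lines, with let-7e at -0.38 and let-7f at -0.02.

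Each ratio was also set against those of the 100 probes closest to it in mean intensity, as a distance from their median in robust SDs (scaled from the median absolute deviation). Other let-7 members of like brightness were kept among the 100. Array noise and any response to treatment both enter this spread. Let-7e lay at -1.33 robust SDs, and 11 of the 100 had a ratio as low or lower. Let-7a lay at -1.30, with 13 of 100 as low or lower, let-7e among them. Both were low among their neighbours without being at the edge. Let-7d and let-7b lay at -0.355 and -0.260, with 38 and 44 of 100 as low or lower. Let-7c lay at -0.0475 and let-7f at 0.0775, with 48 and 54 of 100 as low or lower. Let-7c and let-7f thus sat in the middle of their neighbours.

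**Figure D4:**
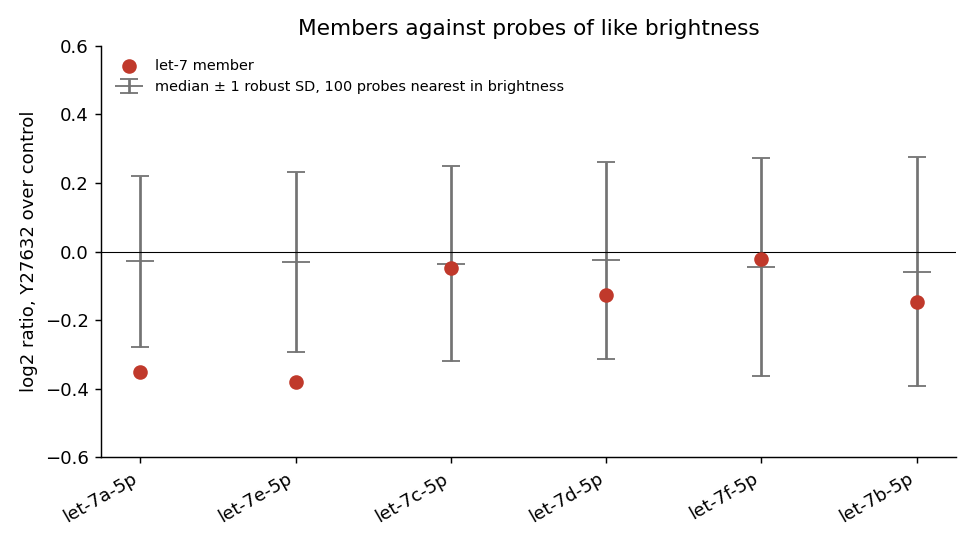
Log2 ratio of Y27632 over control for each member listed on both arrays (red points), beside the median of its 100 neighbours in brightness (grey bar, with whiskers of 1 robust SD). Let-7a and let-7e lie just below their whiskers, at -0.35 and -0.38, and the other 4 members lie within theirs.

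Let-7a and its 1-base relatives had unequal ratios on these arrays. The intensity of let-7a over that of let-7f was 2.28 on the Y27632 array and 2.87 on the control array, and over that of let-7c it was 1.80 and 2.22. The intensity of let-7a over that of let-7e was nearly level, at 1.20 on the Y27632 array and 1.18 on the control array. The log2 ratio of let-7a minus that of let-7f was -0.33, and minus that of let-7c it was -0.30, but minus that of let-7e it was 0.03. The 2 larger differences are about the size of 1 robust SD for the ratio of a single probe of this brightness (0.25 to 0.32). A difference between the ratios of 2 separate probes would spread more widely than that. None of these differences could be tested. The chromosome 9 cluster cannot be read on its own, since the probes for let-7a and let-7f also read their other loci.

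Summed intensity of the 6 members was 113.4 on the Y27632 array and 133.2 on the control array, a ratio of 0.851. Let-7a and let-7e carried 83.8% of that difference. Without these members, singled out after their values were seen, the sums of the other 4 were 55.7 after Y27632 and 58.9 in the control, a ratio of 0.946. All listed members together made up 0.0936% of the summed signal of the Y27632 array and 0.117% of that of the control array. These shares cover unlike sets, with let-7g on the Y27632 array only and let-7i and miR-98 on the control array only. The brightest single probe, at 43198.2 (Y27632) and 45829.6 (control), weighs heavily in these totals.

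The remaining 3 members were each listed on 1 array only, at low intensity. Let-7g read 3.6 on the Y27632 array and was not listed on the control array. Let-7i was not listed on the Y27632 array and read 3.6 on the control array. MiR-98 was likewise not listed on the Y27632 array and read 2.4 on the control array. The lowest listed intensities were 2.7 (Y27632) and 2.3 (control), and 16.9% of the probes listed on the Y27632 array were dimmer than let-7g, while 23.3% and 0.485% of those on the control array were dimmer than let-7i and miR-98. No fold is given for any of the 3, since each lacks a value on the other array.

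Being listed once was common at this brightness. Of the 275 other probes within 1.5-fold of let-7g on the Y27632 array, 32.4% were not listed on the control array. Of the 280 within 1.5-fold of let-7i on the control array, 33.2% were not listed on the Y27632 array, and for the 143 around miR-98 the share was 44.8%. In sequence, let-7g and let-7i share G12U and U18C, and let-7i and miR-98 share A19U, whereas none of the 6 members listed on both arrays carries any of these. This grouping was noticed after the values were seen. None of the 3 has a relative 1 base away among the members, which let-7a, let-7b, let-7c, let-7e and let-7f have and let-7d lacks. Let-7g and miR-98 differ from let-7a by 2 bases, as do let-7b and let-7d, and they share no substitution with each other. Whether sequence likeness bears on these intensities was not tested.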

How the data were processed

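Mature miRNAs were measured on 2 arrays, 1 per condition, grouped by sample title. The deposited intensity values are 1 per probe and array to 1 decimal. Total RNA was isolated with ISOGEN and labelled with Hy5, per the labels' protocols. How the authors corrected background and normalized, with which software and detection limit, is not given in the sources used here, and the linear scale was inferred from the values. Depth has no counterpart on arrays, and their number limits the precision.

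Log2 ratios of Y27632 over control were computed without pseudocount or further normalization for probes listed on both arrays. Every member is named, and a member counted as called at 1.5-fold. The members, lists and limits were chosen with earlier results of these data known. Alternatives were median centring, quantile normalization, lowess (fraction 0.4), a pseudocount of 3, a matched floor, the brighter 50% of probes (geometric mean of at least 7.57) and a 2-fold limit. The ratio step was run on simulated data built from known ratios, which it had to return, so this checks the arithmetic only. Opposite arms, seed relatives, clustered miRNAs and cell type markers could not be matched to accessions and were not analysed here. Sequences and loci are from RefSeq (GRCh38.p14), matched by name for all 9 members. Python 3.11.15, numpy 2.4.6, pandas 2.3.3, statsmodels 0.14.6 and matplotlib 3.10.9 were used.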

Additional observations from a re-analysis of the deposited data

Results flagged for a closer look

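Let-7g was listed at 3.6 on the Y27632 array and not on the control array, so it has a signal with no control counterpart. Only this direction was flagged. The opposite held for let-7i (3.6) and miR-98 (2.4), which were listed on the control array only. Over all probes, 95 were listed on the Y27632 array only and 100 on the control array only. The lowest intensity listed on the Y27632 array was 2.7, and 32.4% of the 275 other probes within 1.5-fold of let-7g on that array were also not listed on the control array. What part the listing limit has in this value was not tested.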

How the results depend on the processing

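No member was 1.5-fold higher or lower after quantile normalization, a lowess correction or a matched floor. The matched floor could only lower ratios, so its count of higher members was fixed in advance. The 2-fold limit, the brighter 50%, median centring and the pseudocount also gave 0 and 0, which their construction fixes and which says nothing about stability. The median log2 ratio of the 6 members stayed below 0, between -0.19 (matched floor, Y27632 values lowered by 0.4) and -0.07 (quantile normalization). With all 6 ratios below 0 as deposited, the pseudocount and the matched floor could not bring this median above 0. Median centring and the brighter 50% left it at -0.14 by construction, since the median of all probes was 0 and all 6 members are in that set. The direction of single members could reverse only under quantile normalization and lowess, where 1 of 6 and 2 of 6 values did: let-7f was at 0.078 after quantile normalization and 0.034 after lowess, and let-7c was at 0.012 after lowess. Let-7d was also no longer lower, at 0 after quantile normalization. Each of these moves was smaller than the robust SD of probes of like brightness. Let-7e kept a log2 ratio between -0.40 and -0.29 and let-7a between -0.37 and -0.23. There was no replicate to leave out. No paired analysis was possible because there is a single array for each group. Signal over background could not be examined, and this limits let-7g, let-7i and miR-98 most.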
